A study of Sus scrofa with 23 samples.

Results

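The 10 genes followed here in pig back muscle serve fatty acid uptake, the carnitine shuttle and mitochondrial uncoupling: LPL, CD36, FABP3, ACSL1, CPT1A, CPT1B, CPT2, MLYCD, UCP2 and UCP3. They were found on the array as the non-control probes whose gene name was one of these symbols or whose description gave the symbol in parentheses. By accession or by a symbol in the files, 4952 gene symbols could be given to the array's 43603 probes, and 32630 probes got none. The rule found 28 probes: 5 for LPL, 4 for CD36, 4 for FABP3, 3 for ACSL1, 6 for CPT1A, 3 for CPT1B, 1 for UCP2 and 2 for UCP3. It found 0 probes for CPT2 and 0 for MLYCD, so 8 of the 10 genes were measured. Of the 28 probes 25 passed the filter on dim signals, as did 27797 of all probes, and the 3 that did not were CPT1A probes.

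Longissimus, a muscle running along the back, was sampled from 23 pigs that all weighed 115 kg. Residual feed intake, shortened to RFI, measures how much more or less an animal eats than its growth and maintenance call for. The pigs belonged to a low-RFI strain (RFIneg in the labels) or a high-RFI strain. The groups were 7 low-RFI pigs with feed ad libitum, 8 high-RFI pigs restricted to the feeding level of the low-RFI strain (RFIplR) and 8 high-RFI pigs with feed ad libitum (RFIpl). Low-RFI against high-RFI pigs compares the strains under free feeding, restricted against high-RFI pigs compares feeding levels within a strain, and low-RFI against restricted pigs compares the strains at a like feeding level.

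Muscle takes up fatty acids that lipoprotein lipase frees from circulating triglyceride at the capillary wall. CD36 at the cell surface and the cytosolic carrier FABP3 bring them inside, and long-chain acyl-CoA synthetases such as ACSL1 activate them. CPT1 on the outer and CPT2 on the inner mitochondrial membrane then pass the acyl groups through as carnitine esters, and malonyl-CoA, which malonyl-CoA decarboxylase (MLYCD) breaks down, inhibits CPT1. The uncoupling proteins are carriers of the inner mitochondrial membrane. UCP3 is found mainly in skeletal muscle and is known to respond to fatty acid supply and fasting, whereas UCP2 is found in many tissues.

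Each value is the log2 of the background-subtracted signal of a probe minus the 75th percentile of its array, so 0 is the level that 75% of spots lie below. Levels of different probes depend on the probe and are not set against each other. The RNA of each pig was hybridised to 1 array, so the spread within a group holds variation between pigs and between arrays, which cannot be told apart, and the number of pigs limits the precision. Between 41.7% and 79.1% of the probes on an array were well above background. The arrays lay on 6 slides scanned on 2 days, and every slide held 1 or 2 arrays of each of the 3 groups. The mean of a group on a slide therefore rests on 1 or 2 pigs. The share of all probes with the same sign on every slide was not computed. Slide 3 had 4 arrays with low shares, 41.7% to 58.9%. High-RFI pig 8, on slide 4, lay in this range too, at 58.5%. All 10 muscle fibre markers that were listed were measured, with a mean level of 9.32 ± 0.08 in low-RFI, 9.24 ± 0.15 in restricted and 9.17 ± 0.13 in high-RFI pigs (SD, n = 7, 8 and 8). In whole tissue, fewer cells of a type and less RNA per cell cannot be told apart.

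Some probe sequences are printed because they show what the signals rest on. The UCP3 probes had the widest differences of the 8 measured genes in both comparisons with high-RFI pigs. The dimmer UCP3 probe, A_72_P443167, is shown with the LPL probe of the widest difference.

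UCP3 A_72_P443167: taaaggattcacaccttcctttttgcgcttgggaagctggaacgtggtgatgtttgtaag
LPL A_72_P732308: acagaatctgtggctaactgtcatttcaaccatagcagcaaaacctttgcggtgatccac

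Probes of the same gene were compared in all 44 pairs for a shared run of at least 12 bases, and 1 pair shared one. The capitals mark the 13 bases that these FABP3 probes have in common, so these probes do not read fully separate stretches of the transcript.

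FABP3 A_72_P442936: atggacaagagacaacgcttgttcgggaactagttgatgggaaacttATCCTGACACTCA
FABP3 A_72_P442944: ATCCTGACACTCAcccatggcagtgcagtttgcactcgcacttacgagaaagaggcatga

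CPT1A and CPT1B are paralogs, and their most alike probes were aligned to show where the sequences differ. Over 57 aligned bases 39 matched (68.4%), the largest number of matching bases among the 18 pairs of a CPT1A and a CPT1B probe. The pair was chosen by this number and not by percent identity, and the capitals mark the matching bases.

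CPT1A A_72_P443908: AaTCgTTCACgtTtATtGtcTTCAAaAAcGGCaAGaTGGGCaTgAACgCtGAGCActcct
CPT1B A_72_P562224: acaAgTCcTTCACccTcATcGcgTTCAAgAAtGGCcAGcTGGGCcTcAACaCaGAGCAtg

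The CPT1A probe of this pair was well above background on 1 array of each group, while the CPT1B probe was so on all 23 arrays. UCP2 and UCP3 both lie on chromosome 9 of the Sscrofa11.1 assembly, with 1 annotated gene and 0 protein-coding genes between them.

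No probe of these genes passed the threshold of an adjusted p of 0.05 in any comparison (limma, Benjamini-Hochberg over all 27797 probes). In low-RFI against high-RFI pigs 0 of the 25 probes passed, beside 0.122% of all probes (0.0432% above and 0.0791% below high-RFI pigs). At an unadjusted p under 0.05 there were 3 of 25, beside 11.1% of all probes, 2 of them higher in low-RFI pigs, beside 7.19%, and 1 lower, beside 3.91%. Of the 25, 11 had a higher and 14 a lower mean in low-RFI pigs, with a median difference of -0.06 against 0.02 over all probes. By the brightest probe of each of the 8 genes, 5 were higher and 3 lower (median 0.065), and 55.3% of all probes were higher. In restricted against high-RFI pigs 0 of 25 passed, beside 0.0036% of all probes, and 2 of 25 had an unadjusted p under 0.05, beside 9.76%, both higher in restricted pigs, beside 4.95%. There 18 probes had a higher and 7 a lower mean in restricted pigs, with a median of 0.15 against 0.01 over all probes. By brightest probes 7 genes were higher and 1 lower (median 0.19), and 53.1% of all probes were higher. In low-RFI against restricted pigs 0 of 25 passed, beside 0.162% of all probes (0.072% above and 0.0899% below restricted pigs), and 1 of 25 had an unadjusted p under 0.05, beside 10.2%, lower in low-RFI pigs, beside 4.61%. Here 5 probes had a higher and 20 a lower mean in low-RFI pigs, with a median of -0.22 against 0.02. By brightest probes 3 genes were higher and 5 lower (median -0.205), and 54.7% of all probes were higher. The F test over the 3 groups called 0 of 25, beside 0.137% of all probes, and 3 of 25 at an unadjusted p under 0.05, beside 12.5%. Each comparison shares a group of pigs with each of the others, so their differences are not independent. Probes of the same gene repeat each other, so the 25 are not separate readings either. The 2 probes higher at an unadjusted p under 0.05 in each comparison with high-RFI pigs were both of UCP3. In each comparison 0 of the 25 probes had groups without overlap. Among all probes this share was 0.353% between low-RFI and high-RFI pigs, 0.0791% between restricted and high-RFI pigs and 0.227% between low-RFI and restricted pigs.

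**Figure D1:**
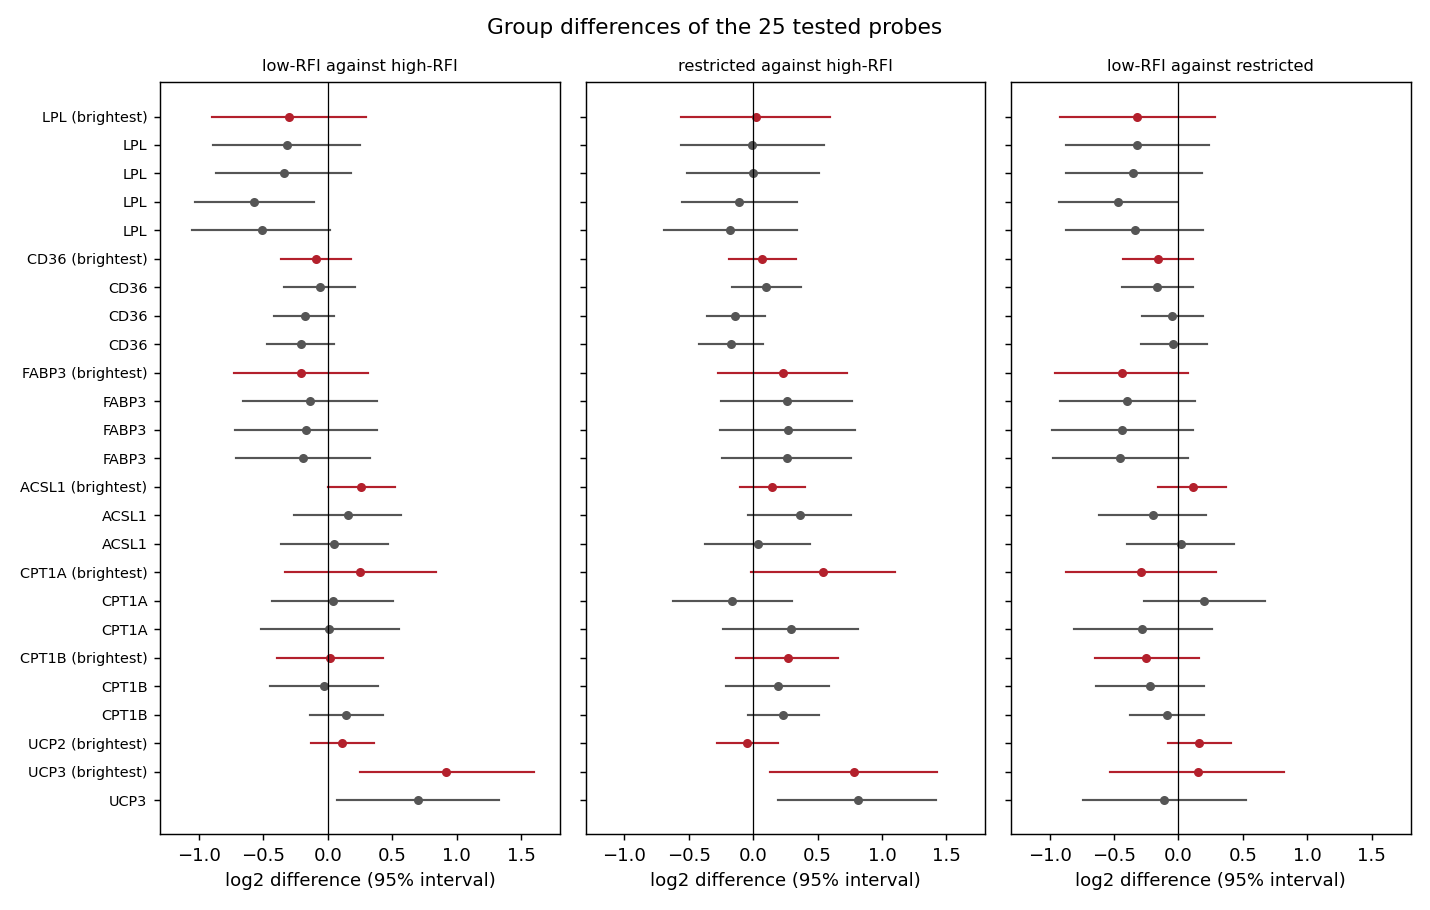
Log2 differences (first-named minus second-named group) with 95% intervals of the 25 tested probes in the 3 comparisons, from the fit of all 23 pigs. The brightest probe of each gene is red, the others grey. Both UCP3 intervals lie right of 0 in the comparisons with high-RFI pigs, between 0.07 and 1.60 for low-RFI and between 0.13 and 1.43 for restricted pigs.

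LPL, which frees fatty acids from lipoproteins, had its brightest probe at 1.43, 1.77 and 2.34 (lowest, median, highest) in low-RFI pigs, at 1.10, 2.05 and 3.17 in restricted pigs and at 0.94, 2.15 and 3.16 in high-RFI pigs. The low-RFI pigs all lay inside the range of both other groups, and their SD was 0.28, beside 0.64 in restricted and 0.72 in high-RFI pigs. The difference was -0.30 (SE 0.29, adjusted p = 0.773) for low-RFI against high-RFI, 0.02 (SE 0.28, adjusted p = 0.995) for restricted against high-RFI and -0.32 (SE 0.29, adjusted p = 0.768) for low-RFI against restricted pigs. All 5 LPL probes had a lower mean in low-RFI than in high-RFI pigs, by differences of -0.30 to -0.57, and their correlations with each other ran from 0.85 to 0.99. One of them, A_72_P232767, lacked a value in 1 high-RFI pig, which the fit left out.

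The widest LPL difference was that of A_72_P732308, whose sequence is given above. It read -2.54, -2.07 and -1.47 in low-RFI pigs, -2.38, -1.52 and -0.71 in restricted pigs and -1.90, -1.47 and -0.60 in high-RFI pigs. The low-RFI pigs reached below the high-RFI pigs but overlapped them. The difference was -0.57 (SE 0.22, unadjusted p = 0.0166, adjusted p = 0.324) against high-RFI pigs, with the low-RFI mean lower on all 6 slides, and -0.47 (SE 0.22, unadjusted p = 0.0461, adjusted p = 0.481) against restricted pigs. Its signal exceeded background clearly in 6 of the 7 low-RFI pigs and in all pigs of the other groups. The exception, at -2.54, was low-RFI pig 7, the only low-RFI pig on slide 3. The 3 brighter LPL probes gave -0.30 to -0.34 against high-RFI pigs.

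CD36, the fatty acid carrier of the cell surface, had its brightest probe at 4.76, 5.10 and 5.57 in low-RFI pigs, at 4.72, 5.39 and 5.71 in restricted pigs and at 5.08, 5.27 and 5.56 in high-RFI pigs. The high-RFI pigs, with an SD of 0.15, lay inside the range of the other two groups. The difference was -0.09 (SE 0.13, 95% interval -0.36 to 0.18) for low-RFI against high-RFI, 0.07 (SE 0.13, interval -0.19 to 0.33) for restricted against high-RFI and -0.16 (SE 0.13, interval -0.43 to 0.11) for low-RFI against restricted pigs. The 4 CD36 probes did not share a sign in restricted against high-RFI pigs: the 2 brighter ones read 0.07 and 0.10, the 2 dimmer ones -0.14 and -0.17.

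FABP3, the fatty acid binding protein of heart and skeletal muscle, lay at 4.79, 5.01 and 5.59 in low-RFI pigs, at 4.81, 5.54 and 6.24 in restricted pigs and at 4.45, 5.14 and 6.43 in high-RFI pigs. As for LPL, the low-RFI pigs were close together, with an SD of 0.28, beside 0.57 in restricted and 0.59 in high-RFI pigs. The difference was -0.21 (SE 0.25, adjusted p = 0.825) for low-RFI against high-RFI, 0.23 (SE 0.24, adjusted p = 0.839) for restricted against high-RFI and -0.44 (SE 0.25, unadjusted p = 0.0892, adjusted p = 0.558) for low-RFI against restricted pigs. The 4 FABP3 probes correlated with each other at 0.99 to 1.0 and gave differences of -0.40 to -0.45 in the last comparison.

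**Figure D2:**
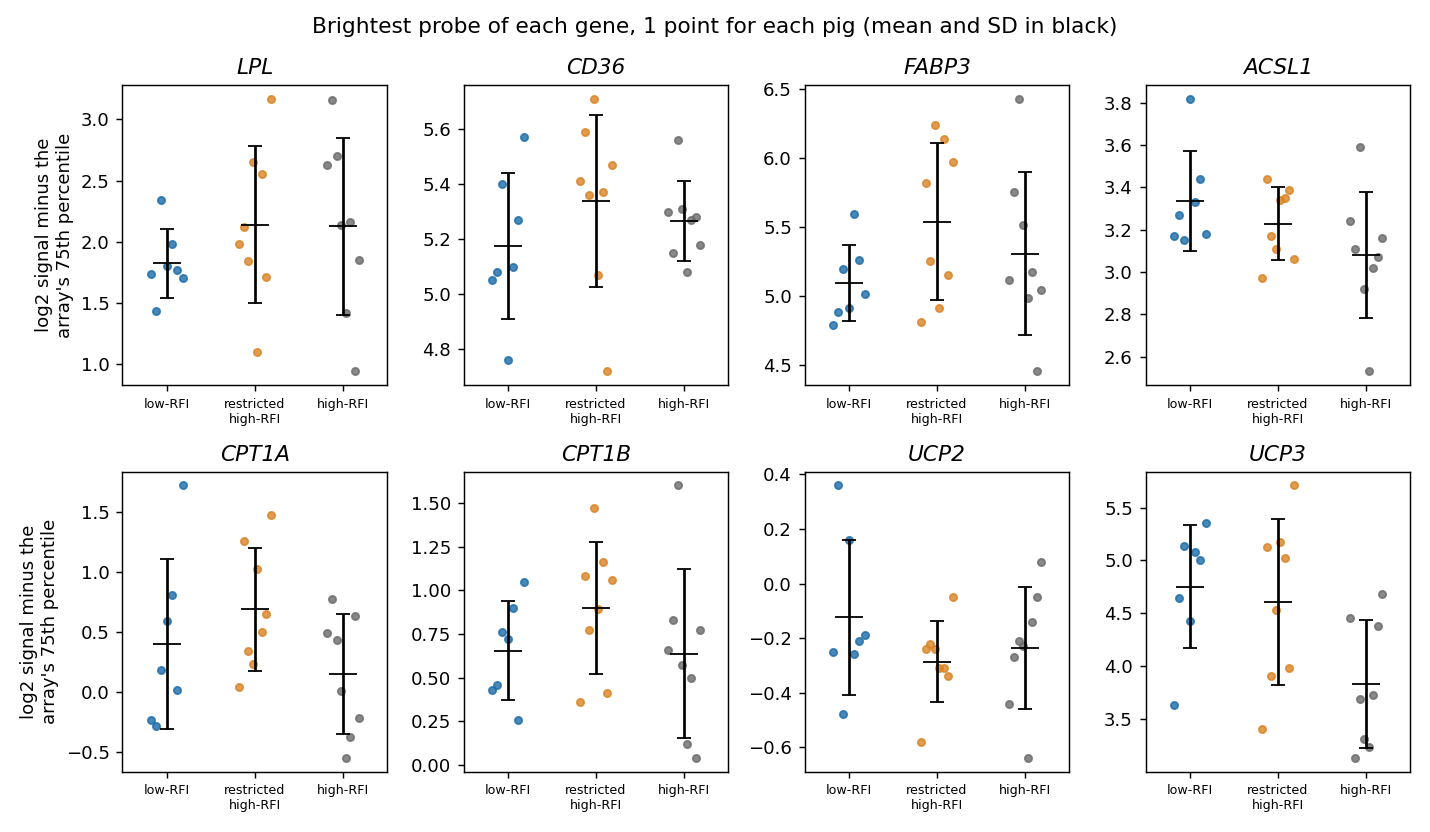
Level (log2 signal minus the 75th percentile of the array) of the brightest probe of each of the 8 measured genes, with 1 point for each pig and the mean and SD of each group in black (7 low-RFI, 8 restricted high-RFI and 8 high-RFI pigs). The axes differ between panels. The groups overlap in every panel, and 6 of 7 low-RFI pigs lie at 4.43 or above for UCP3, beside 2 of 8 high-RFI pigs above that level.

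ACSL1, which activates long-chain fatty acids, had its brightest probe at 3.15, 3.27 and 3.82 in low-RFI pigs, at 2.97, 3.25 and 3.44 in restricted pigs and at 2.53, 3.09 and 3.59 in high-RFI pigs. The low-RFI range began above the high-RFI median, and the groups overlapped. The low-RFI mean was higher than the high-RFI mean on 6 of 6 slides, each with 1 or 2 pigs of a group. It was higher by 0.26 over all pigs (SE 0.13, unadjusted p = 0.0532, adjusted p = 0.457), and by 0.26 with slide as a block (unadjusted p = 0.0304, adjusted p = 0.347). The difference was 0.15 (SE 0.12) for restricted against high-RFI and 0.11 (SE 0.13) for low-RFI against restricted pigs. The other ACSL1 probes correlated with the brightest at 0.49 and 0.58 only, and gave 0.16 and 0.05 for low-RFI against high-RFI pigs.

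CPT1A, the liver-type CPT1 that muscle also makes, had its brightest probe at -0.28, 0.18 and 1.72 in low-RFI pigs, at 0.04, 0.58 and 1.47 in restricted pigs and at -0.55, 0.22 and 0.77 in high-RFI pigs. Among the restricted pigs 3 lay above the highest high-RFI pig, and their mean was 0.69 ± 0.51, against 0.15 ± 0.50 in high-RFI pigs (SD, n = 8 each). The difference was 0.54 (SE 0.27, unadjusted p = 0.058, adjusted p = 0.539) for restricted against high-RFI, 0.25 (SE 0.28) for low-RFI against high-RFI and -0.29 (SE 0.28) for low-RFI against restricted pigs. Without low-RFI pig 7, the highest of the 23, the differences of low-RFI pigs were 0.03 against high-RFI and -0.51 against restricted pigs. The other 2 kept CPT1A probes gave -0.16 and 0.29 for restricted against high-RFI pigs. The 3 probes left out were well above background on 1 to 4 arrays of a group.

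CPT1B, the muscle-type CPT1, had its brightest probe at 0.26, 0.72 and 1.05 in low-RFI pigs, at 0.36, 0.98 and 1.47 in restricted pigs and at 0.04, 0.61 and 1.60 in high-RFI pigs. The high-RFI pigs covered the ranges of the other groups whole. The difference was 0.02 (SE 0.20, interval -0.39 to 0.43) for low-RFI against high-RFI, 0.27 (SE 0.19, interval -0.13 to 0.66) for restricted against high-RFI and -0.25 (SE 0.20, interval -0.65 to 0.16) for low-RFI against restricted pigs. The 3 CPT1B probes all had a higher mean in restricted than in high-RFI pigs, by 0.19 to 0.27.

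UCP2 had 1 probe, at -0.48, -0.21 and 0.36 in low-RFI pigs, at -0.58, -0.27 and -0.05 in restricted pigs and at -0.64, -0.22 and 0.08 in high-RFI pigs. The group medians lay within 0.06 of each other. The difference was 0.11 (SE 0.12, interval -0.13 to 0.36) for low-RFI against high-RFI, -0.05 (SE 0.11, interval -0.28 to 0.19) for restricted against high-RFI and 0.16 (SE 0.12, interval -0.08 to 0.41) for low-RFI against restricted pigs.

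UCP3, the uncoupling protein of skeletal muscle, had the widest differences of the 8 genes in both comparisons with high-RFI pigs. Its brightest probe, A_72_P146406, lay at 3.63, 5.0 and 5.35 in low-RFI pigs, at 3.41, 4.77 and 5.71 in restricted pigs and at 3.13, 3.71 and 4.68 in high-RFI pigs. The medians of low-RFI and restricted pigs were above the highest high-RFI pig, and 1 low-RFI pig lay below the high-RFI median. The difference was 0.92 (SE 0.33, a 1.90-fold higher signal, unadjusted p = 0.00936, adjusted p = 0.279) for low-RFI against high-RFI and 0.78 (SE 0.31, 1.72-fold, unadjusted p = 0.0211, adjusted p = 0.398) for restricted against high-RFI pigs. Between low-RFI and restricted pigs it was 0.15 (SE 0.33, interval -0.53 to 0.82, adjusted p = 0.931).

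The other UCP3 probe, A_72_P443167, correlated with the brightest at 0.96 over the 23 pigs. It lay at -0.42, 1.06 and 1.29 in low-RFI pigs, at 0.01, 1.01 and 2.04 in restricted pigs and at -0.74, -0.03 and 0.79 in high-RFI pigs. Here too the medians of low-RFI and restricted pigs were above the highest high-RFI pig, and the groups overlapped. The difference was 0.70 (SE 0.31, unadjusted p = 0.0321, adjusted p = 0.392) for low-RFI against high-RFI, 0.81 (SE 0.30, unadjusted p = 0.012, adjusted p = 0.336) for restricted against high-RFI and -0.11 (SE 0.31) for low-RFI against restricted pigs.

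The UCP3 differences were larger on the first than on the second of the 2 scan days, the days on which the slides were read per the file headers, but the change between days did not pass an adjusted p of 0.05. On scan day 1 the brightest probe read 3.63, 5.08, 5.14 and 5.35 in the low-RFI pigs, 3.41, 5.02, 5.13 and 5.71 in the restricted pigs and 3.13, 3.24, 3.31 and 3.73 in the high-RFI pigs. On that day 3 of 4 low-RFI and 3 of 4 restricted pigs lay above all 4 high-RFI pigs. On scan day 2 it read 4.43, 4.64 and 5.0 in the low-RFI pigs, 3.91, 3.98, 4.53 and 5.17 in the restricted pigs and 3.69, 4.38, 4.46 and 4.68 in the high-RFI pigs, and the groups overlapped throughout. The difference against high-RFI pigs was 1.45 on day 1 and 0.38 on day 2 for low-RFI pigs, and 1.47 and 0.09 for restricted pigs. The day 2 minus day 1 change was -1.06 (SE 0.61, unadjusted p = 0.0974) for low-RFI and -1.37 (SE 0.59, unadjusted p = 0.0302, adjusted p = 1 over all probes) for restricted against high-RFI pigs, and at an unadjusted p under 0.05 this change was called for 2.65% of all probes in the second of these. With slide as a block the UCP3 difference was 0.88 for low-RFI (higher on 5 of 6 slides) and 0.64 for restricted pigs (4 of 6 slides, unadjusted p = 0.0659). Without the 4 arrays of slide 3 it was 0.74 and 0.44, and normexp background correction turned the restricted difference to -0.07. Other genes also changed between days for low-RFI against high-RFI pigs, none past an adjusted p of 0.05. The ACSL1 probe A_72_P443267 had 0.59 on day 1 and -0.33 on day 2 (limma unadjusted p = 0.0242, beside 2.18% of all probes under 0.05). The brightest probes of CPT1A (0.66 and -0.22), CPT1B (0.28 and -0.29) and CD36 (0.08 and -0.29) changed sign, with unadjusted p = 0.136, 0.173 and 0.161. Those of LPL, FABP3, ACSL1 and UCP2 did not change sign.

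**Figure D3:**
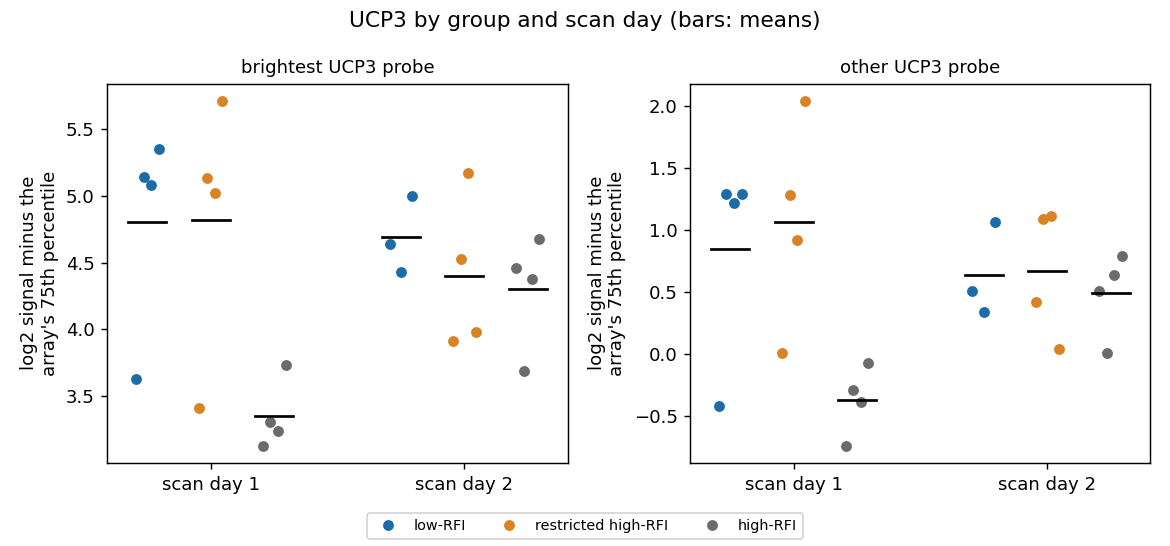
Level (log2 signal minus the 75th percentile of the array) of both UCP3 probes in each pig by group and scan day, with bars at the means (4 low-RFI, 4 restricted and 4 high-RFI pigs on day 1, and 3, 4 and 4 on day 2). High-RFI pigs averaged 3.35 on day 1 and 4.30 on day 2 for the brightest probe, while low-RFI pigs averaged 4.80 and 4.69.

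From the lowest to the highest pig the signal of the brightest probe spanned 5.98-fold for UCP3, 4.82-fold for CPT1A, 4.69-fold for LPL, 3.94-fold for FABP3, 2.95-fold for CPT1B, 2.45-fold for ACSL1, 2.0-fold for UCP2 and 1.99-fold for CD36. Correlations between the brightest probes over the 23 pigs were computed for all 28 pairs of genes, with two-sided permutation p of 100000 resamples, adjusted over the 28 pairs by Benjamini-Hochberg, and 6 pairs passed 0.05 by both r and rho. The share of pairs of other genes that would pass on these arrays was not computed, so this count does not set these genes apart. By rho alone 2 more passed, LPL with CD36 (r = 0.44, adjusted p = 0.125, and rho = 0.55, adjusted p = 0.0395 by permutation) and CPT1A with CPT1B (r = 0.47, adjusted p = 0.0921, and rho = 0.52, adjusted p = 0.0395 by permutation). Within scan days 1 and 2 these had r = 0.20 and 0.54, and r = 0.86 and 0.04.

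The closest pair was FABP3 and CPT1B, with r = 0.81 and rho = 0.72 (permutation p = 1e-05 for r, the smallest these resamples can give, and 0.00018 for rho, adjusted p = 0.00028 and 0.00252). High-RFI pig 3 ranked 1 of 23 for both genes, restricted pig 4 ranked 2 for both, and high-RFI pig 7 was the lowest for both. Without the 2 pigs farthest from the FABP3 median r was 0.69, within scan days it was 0.75 and 0.86, and on values centred within slide it was 0.81. LPL and FABP3 correlated at r = 0.77 and rho = 0.76 (permutation p = 3e-05 and 4e-05, adjusted p = 0.00042 and 0.00112), with r = 0.77 without 2 pigs and 0.72 and 0.82 within scan days. LPL and CPT1B correlated at r = 0.60 and rho = 0.58 (permutation p = 0.00248 and 0.00469, adjusted p = 0.0231 and 0.0395), with r = 0.64 without 2 pigs and 0.53 and 0.70 within scan days.

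CD36 correlated with CPT1B at r = 0.55 and rho = 0.55 (permutation p = 0.00659 and 0.00783, adjusted p = 0.0369 and 0.0395), with r = 0.62 without 2 pigs and 0.59 and 0.55 within scan days. With FABP3 it correlated at r = 0.53 and rho = 0.54 (permutation p = 0.00976 and 0.00936, adjusted p = 0.0455 and 0.0395), with r = 0.56 without 2 pigs, but 0.26 on day 1 and 0.66 on day 2. On values centred within group neither CD36 pair passed, with r = 0.53 (permutation adjusted p = 0.0582) for CPT1B and 0.48 (adjusted p = 0.0919) for FABP3. Thus 4 of the 6 pairs joined LPL, FABP3, CPT1B or CD36 within both scan days at 0.53 or more.

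CPT1A and UCP3 were the sixth pair, with r = 0.57 and rho = 0.53 (permutation p = 0.00472 and 0.0104, adjusted p = 0.033 and 0.0395). It differed between scan days, with r = 0.74 on day 1 and -0.10 on day 2, while on values centred within slide it was 0.56 (permutation adjusted p = 0.0214) and within group 0.53 (adjusted p = 0.0582). It was 0.41 (permutation p = 0.0655) without the 2 pigs farthest from the CPT1A median. UCP3 and LPL had r = -0.01, and UCP2 passed with no other gene.

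**Figure D4:**
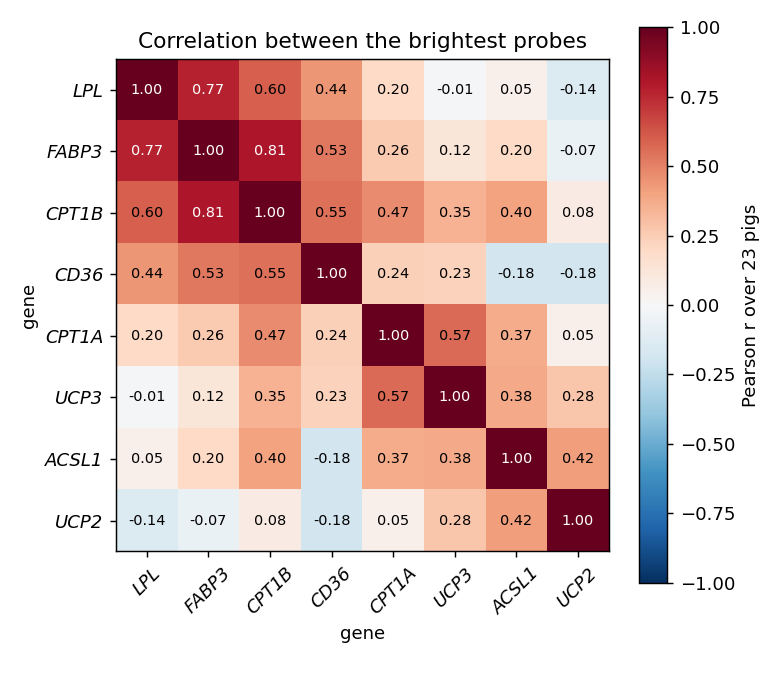
Pearson r between the brightest probes of the 8 genes over 23 pigs, with genes on both axes and the colour and number of a cell giving r. LPL, FABP3 and CPT1B lie at 0.60 to 0.81 with each other and at 0.44 to 0.55 with CD36, and CPT1A lies at 0.57 with UCP3 and at 0.47 with CPT1B.

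Whether marker genes of other cell types moved with these genes was examined with the mean level of 6 marker lists, 48 correlations in all. LPL moved with the endothelial list (6 of 8 genes measured), at r = 0.78 and rho = 0.76 (permutation p = 1e-05 and 8e-05, adjusted p = 0.00048 and 0.00384), with r = 0.64 without 2 pigs and 0.87 and 0.67 within scan days. FABP3 moved with it too, at r = 0.64 and rho = 0.69 (permutation p = 0.00098 and 0.00043, adjusted p = 0.0235 and 0.0103), with r = 0.66 without 2 pigs and 0.62 and 0.77 within scan days. The endothelial level ran from 0.64 to 1.11 in low-RFI, from 0.62 to 1.30 in restricted and from 0.76 to 1.54 in high-RFI pigs, and its part in the LPL and FABP3 values was not tested.

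LPL and the adipocyte list (11 of 12 genes measured) had r = 0.58 and rho = 0.50 (permutation p = 0.00374 and 0.017, adjusted p = 0.0598 and 0.272), and r = 0.67 and 0.49 within scan days. This did not pass the adjusted threshold, and without the 2 pigs farthest from the LPL median r was 0.33 (permutation p = 0.15). All 11 adipocyte markers had a lower mean in low-RFI than in high-RFI pigs, with a median difference of -0.52 and 0 called, and their mean level ran from -0.31 to 1.10 in low-RFI, from -0.26 to 1.32 in restricted and from -0.44 to 2.09 in high-RFI pigs. Their part in the lower LPL mean of low-RFI pigs was not tested. For UCP3 no list passed, with r of -0.23 to 0.19.

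**Figure D5:**
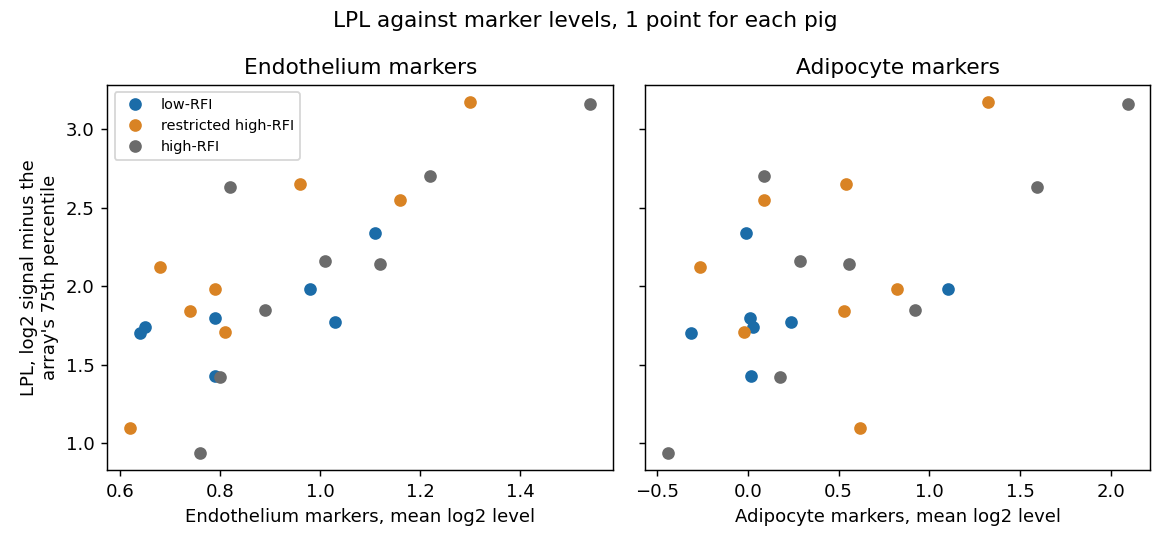
LPL (brightest probe, log2 signal minus the 75th percentile of the array) against the mean log2 level of endothelial markers (left) and adipocyte markers (right), with 1 point for each of the 23 pigs coloured by group. Pigs with a higher endothelial level had a higher LPL level (r = 0.78), and r for the adipocyte level was 0.58.

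The genes whose pattern was most like each member over the 23 arrays were taken as the 3 with the highest Pearson r among 3684 measured genes. For LPL these were MLXIPL (0.82), VSIR (0.79) and GOT1 (0.78), and for CD36 COQ10A (0.82), NFS1 (0.77) and ORAI1 (0.77). FABP3 was most like CKMT2 (0.84), the mitochondrial creatine kinase of muscle, ACADVL (0.79), which starts the oxidation of very long acyl chains, and GOT1 (0.75). CPT1B was most like ACADVL (0.71), COMTD1 (0.70) and GPX4 (0.69), and CPT1A most like PDK4 (0.72), an inhibitor of pyruvate oxidation, DDX55 (0.71) and PLIN2 (0.70), a lipid droplet coat protein. For ACSL1 they were CHGA (0.80), PTGES2 (0.78) and RHOG (0.76), for UCP2 CHGB (0.67), DTD2 (0.62) and KHDRBS3 (0.61), and for UCP3 ZXDC (0.73), BRD2 (0.67) and RORA (0.65). The arrays share slides, and with values centred within slide these r ran from 0.59 to 0.89.

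Other genes of the pathway were read from lists, and 0 of them passed an adjusted p of 0.05 in any comparison (limma). Of 7 measured genes of uptake and binding, 3 had a higher and 4 a lower mean in low-RFI than in high-RFI pigs, with a median difference of -0.09. The smallest p was that of FABP5, the epidermal fatty acid binding protein, at a mean of 5.14 for low-RFI and 5.57 for high-RFI pigs (difference -0.43, SE 0.20, adjusted p = 0.439). Next came VLDLR, the receptor for very low density lipoprotein, at 0.18 (SE 0.11), and DBI, the acyl-CoA binding protein, at -0.15 (SE 0.11). In restricted against high-RFI pigs the list split 3 to 4 again, with a median of -0.06.

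Of 7 measured genes of activation and the carnitine system, 4 had a higher and 3 a lower mean in low-RFI than in high-RFI pigs (median 0.12). CRAT, carnitine acetyltransferase, averaged 7.93 in low-RFI, 7.87 in restricted and 7.66 in high-RFI pigs, a difference of 0.27 (SE 0.10, adjusted p = 0.316) for low-RFI and of 0.21 (SE 0.10, adjusted p = 0.496) for restricted against high-RFI pigs. TMLHE, the first enzyme of carnitine synthesis, was at 0.28 (SE 0.13, adjusted p = 0.435) for low-RFI against high-RFI pigs, and ACSL4, another acyl-CoA synthetase, at 0.12 (SE 0.11).

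Of 10 measured beta-oxidation genes, 3 had a higher and 7 a lower mean in low-RFI than in high-RFI pigs (median -0.09), 8 a higher and 2 a lower mean in restricted than in high-RFI pigs (median 0.11), and 2 a higher and 8 a lower mean in low-RFI than in restricted pigs (median -0.09). DECR1, a reductase for unsaturated acyl-CoA, averaged 0.99 in low-RFI, 1.47 in restricted and 1.45 in high-RFI pigs, a difference of -0.48 (SE 0.14, adjusted p = 0.204) against restricted and of -0.45 (SE 0.14, adjusted p = 0.225) against high-RFI pigs. HADH, the short-chain hydroxyacyl-CoA dehydrogenase, was at -0.28 (SE 0.10, adjusted p = 0.337) and ACADS, the short-chain acyl-CoA dehydrogenase, at -0.26 (SE 0.13, adjusted p = 0.502) for low-RFI against restricted pigs. For restricted against high-RFI pigs the smallest p was that of HADHA, of the trifunctional protein, at 0.22 (SE 0.13, adjusted p = 0.61).

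Of 8 measured regulators, 6 had a higher and 2 a lower mean in low-RFI than in high-RFI pigs (median 0.15), and 7 a higher and 1 a lower mean in restricted than in high-RFI pigs (median 0.20). LPIN1, lipin 1, was at 0.37 (SE 0.16, adjusted p = 0.379) and PRKAA2, a catalytic subunit of the AMP-activated kinase, at 0.22 (SE 0.11, adjusted p = 0.453) for low-RFI against high-RFI pigs. PPARGC1A, a coactivator of mitochondrial genes, averaged 1.49 in low-RFI, 2.81 in restricted and 2.15 in high-RFI pigs, a difference of -1.32 (SE 0.38, adjusted p = 0.20) for low-RFI against restricted pigs. Of 4 measured genes of other uncoupling and nucleotide carriers and their partners, 1 had a higher and 3 a lower mean in low-RFI than in high-RFI pigs (median -0.20). SOD2, the mitochondrial superoxide dismutase, averaged 4.83 in low-RFI, 5.25 in restricted and 5.28 in high-RFI pigs, a difference of -0.45 (SE 0.13, adjusted p = 0.202) for low-RFI against high-RFI pigs.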

How the data were processed

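Total RNA of each muscle sample was labelled with Cy3 and hybridised to an Agilent single-colour array, per the labels' protocols. Per the file headers, Feature Extraction 10.7.3.1 subtracted background within each array to give the deposited spot intensity values, with no scaling across arrays. R 2.10.0 stands in the submitters' processing notes. The authors' deposited log2 table (26410 probes, 24 of the 28 probes here) equalled log2 of that signal less 1 constant per array when set against the scanner values, and served as an alternative. How its probes were chosen is not given in the sources used here.

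From the scanner values log2 processed signal minus the array's 75th percentile was taken over 43803 non-control spots. Spots marked as outliers were set to missing and duplicate spots averaged, which left 484 missing values among the kept probes. A probe was kept where at least 6 arrays of any group had it well above background. One fit of the 3 groups was made in limma 3.58.1 under R 4.3.3, with Benjamini-Hochberg adjustment over 27797 probes. Gene names followed the files, or the Sscrofa11.1 RefSeq accession (7369 probes). All probes of the 10 members are reported, with the kept probe of the highest mean as the brightest. From each list up to 3 genes with the smallest p of a comparison were named, and for each member the 3 most alike genes. The file headers gave each array's slide and scan day. Alternatives were other scalings, background correction, filters, variance models, blocks for slide, scan day and replicate number, 2 groups only and leaving out each pig. A fit without slide 3, the scan day interaction and the correlations with marker lists were added after the data were seen. The members and lists were chosen with earlier results of these data known. The fit was tested on simulated independent normal values with the mean and SD of each probe, without slide or scan day effects. Of 100 probes changed by 1 it recovered 72 to 82 in a comparison, and of 100 changed by 0.5 it recovered 32 to 36. A difference of 0.5 would thus often go uncalled. The changed probes were drawn at random, and the median SE over all kept probes was 0.15. For low-RFI against high-RFI pigs the SE of the brightest probe was 0.33 for UCP3, 0.29 for LPL and 0.28 for CPT1A. It was 0.25 for FABP3, 0.20 for CPT1B, 0.13 for CD36 and ACSL1 and 0.12 for UCP2. The recovery rates therefore do not carry over to probes of a larger SE, such as those of UCP3.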

Additional observations from a re-analysis of the deposited data

How the results depend on the processing

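Under each of 14 other settings and with each pig left out, 0 probes of the 10 genes passed in any comparison, and the lowest adjusted p was 0.193, for UCP3. Over all probes, calls for low-RFI against high-RFI, low-RFI against restricted, restricted against high-RFI and the F test numbered 34, 45, 1 and 38 in the reported fit. They were 119, 99, 1 and 181 with array weights, 52, 76, 0 and 92 with trend and robust variance, 50, 98, 2 and 138 with slide as a random block, 19, 25, 0 and 29 with slide as a fixed block, 28, 20, 0 and 19 with the replicate number as a block, 29, 35, 3 and 41 with scan day as a block, 20, 21, 1 and 28 for the deposited values, 23, 23, 0 and 30 with median centring, 35, 39, 1 and 50 with quantile normalization, 22, 18, 0 and 22 without a filter, 18, 60, 1 and 67 with probes well above background on all arrays, 18, 15, 0 and 20 without slide 3, and 38, 25 and 0 in fits of 2 groups only. With normexp they were 0, 0, 0 and 0, and there the fitted background SD was over 100 on 5 arrays, up to 6070. Leaving out each pig gave 22 to 40, 18 to 68, 0 to 7 and 24 to 70, in the same order. The first count was 22 without low-RFI pig 5 or high-RFI pig 2. The second was 18 without low-RFI pig 1, 20 without low-RFI pig 2 or 5 or restricted pig 8, 22 without low-RFI pig 6, 23 without restricted pig 6, 26 without restricted pig 2 or 4 or high-RFI pig 7, and 68 without restricted pig 1. The third was 2, 4 and 7 without high-RFI pig 1, high-RFI pig 8 and restricted pig 3, and the fourth 24 without low-RFI pig 1 and 70 without restricted pig 1. The cause was not tested. Same-numbered pigs of different groups correlated at -0.30 to 0.33. In restricted against high-RFI pigs 4 of 8 such pairs were over 0.1 and 4 of 8 correlated best with their own number, beside 2 of 7 and 0 of 7 for low-RFI against high-RFI and 1 of 7 and 1 of 7 for low-RFI against restricted pigs. As not every pair was over 0.1 and no label gives the number a meaning, the numbers were not taken as pairs, and the replicate block changed no member's call.

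Of 417 differences of the brightest and 2 other probes under other settings, 19 had the opposite sign, 11 of them under normexp. For restricted against high-RFI, LPL was -0.34 under normexp, -0.03 with quantile normalization and with array weights and -0.32 without slide 3, its dimmer probe 0.33, CD36 -0.80, FABP3 -0.64, ACSL1 -0.62, UCP2 0.01 (also with median centring) and UCP3 -0.07 under normexp. For low-RFI against restricted, CD36 was 0.49, FABP3 0.21 and the dimmer UCP3 probe 0.18 under normexp, and that probe 0.03 with the replicate block and 0.01 without slide 3. For low-RFI against high-RFI, CPT1B was -0.05 under normexp and -0.12 without slide 3, and CPT1A -0.07 without slide 3. Leaving out each pig changed the sign of CPT1B for low-RFI against high-RFI (-0.07 to 0.16), of LPL for restricted against high-RFI (-0.15 to 0.17, its dimmer probe -0.21 to 0.02) and of UCP3 for low-RFI against restricted (-0.03 to 0.33, the dimmer probe -0.23 to 0.09). Of the 28 pairs of genes, 6 passed as reported, 11 with values centred within slide and with median centring, and 3 with values centred within group (LPL, FABP3 and CPT1B with each other) and 3 with quantile normalization. Signal over background limits the 3 dim CPT1A probes.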

Other observations

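A pair of kept probes whose descriptions name carnitine palmitoyltransferase 2, the inner membrane enzyme of the carnitine shuttle, fell outside the rule because they give no symbol, and they were looked at for their values alone. A_72_P026376 averaged -0.12 ± 0.27 in low-RFI, 0.16 ± 0.30 in restricted and -0.06 ± 0.30 in high-RFI pigs (SD, n = 7, 8 and 8). Its difference was -0.28 (SE 0.15, limma adjusted p = 0.527) for low-RFI against restricted and 0.23 (SE 0.14, adjusted p = 0.655) for restricted against high-RFI pigs. A_72_P124341 averaged -2.33 ± 0.32 in low-RFI, -2.42 ± 0.18 in restricted and -2.39 ± 0.43 in high-RFI pigs, and the 2 probes correlated at only 0.33 over the 23 pigs.

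PDK4, a kinase that holds back pyruvate oxidation, and PPARGC1A were set against the 8 genes after the data were seen, 16 correlations in all. PDK4 was already the gene most like CPT1A among the 3684 searched, so that pair is given as a description with no p: r = 0.72 and rho = 0.69, with r = 0.62 without the 2 pigs farthest from the CPT1A median and 0.79 and 0.58 within scan days. FABP3 and PPARGC1A had r = 0.59 and rho = 0.62 (permutation p = 0.00327 and 0.00181, adjusted p = 0.0262 and 0.0145), with r = 0.62 without 2 pigs and 0.75 and 0.43 within scan days. LPL and PPARGC1A had r = 0.54 and rho = 0.57 (permutation p = 0.00761 and 0.00534, adjusted p = 0.0406 and 0.0285), but r = 0.38 without 2 pigs and 0.75 and 0.27 within scan days. These adjusted p were taken over all 16 correlations, the CPT1A and PDK4 pair among them, and its small p lowers those of the others. Whether the PPARGC1A pairs pass with that pair left out was not computed. On values centred within group neither PPARGC1A pair passed, with r = 0.50 for FABP3 and 0.52 for LPL (permutation adjusted p = 0.0812 for both). PDK4 itself averaged 0.56 in low-RFI, 2.17 in restricted and 0.89 in high-RFI pigs, with 0 of its comparisons called. UCP3 and PDK4 had r = 0.35 and rho = 0.24 over the 23 pigs, which did not pass (permutation adjusted p = 0.179 and 0.401). For this pair r was 0.70 on scan day 1 and -0.65 on scan day 2, and that change was not tested.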
